A study of Acipenser sinensis with 45 samples.

Results

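The 200 unigenes described here were the most even of the abundant transcripts in a set of 45 RNA-seq libraries from the Chinese sturgeon, Acipenser sinensis. A unigene is a transcript assembled from the reads without a genome. The members were selected on the deposited values themselves. Unigenes with a mean of 50 FPKM or more over the 45 libraries and a value above 0 in each were kept, and the 200 with the smallest standard deviation (SD) of log2(FPKM + 1) over all 45 libraries were taken. FPKM is the number of fragments of a unigene scaled to its length and to the mapped fragments of its library. Of 121952 unigenes, 962 had a mean of 50 FPKM or more, 817 of these were above 0 throughout, and the 200 members made up 24.5% of the 817 and 0.164% of the table. Since each of the 45 libraries entered the choice, the evenness of the members and their differences between groups are given as a description. The rule was also reapplied with some libraries held out, and only the values of those libraries are independent of it.

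The libraries came from the gonad (G), pituitary (P) and hypothalamus (H) of 15 fish from an artificial breeding population, each fish giving 1 library per tissue. The female groups FG, FP and FH came from 3 fish in gonad stage II, the male groups MG, MP and MH from 6 fish in stage II, and the groups UG, UP and UH from 6 fish in stage I whose sex was not determined. Stage II fish were over 4 years old and stage I fish 1 year old, so stage and age cannot be told apart. Female fish 2 and 3, which gave 6 libraries, were sequenced on HiSeq 4000 and the 39 other libraries on HiSeq 2000. For male fish 4, the pituitary and the hypothalamus library carry each other's tissue label when read against the sample codes. Both were grouped by the codes, and exchanging them or leaving them out were run as alternatives.

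The hypothalamus, pituitary and gonad form the axis that controls reproduction: the hypothalamus releases gonadotropin-releasing hormone, the pituitary answers with gonadotropins, and the gonad responds with sex steroids and germ cell growth. Transcripts that vary little between tissues are commonly those of basic cell functions, such as translation and energy metabolism, and such transcripts serve as internal standards when expression is compared. FPKM is a relative scale, on which a few dominant transcripts take fragments from all others. Egg cells store RNA for the embryo and differ in this from most other cells. The files used here do not pair the unigene identifiers with gene names, and 0 identifiers matched the 78555 genes of the RefSeq annotation, so members are named by identifier, no role is given to any of them, and the tissues could not be checked against named marker genes.

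Before the members are described, 1 library has to be named. In FH replicate 1 the 10 most abundant unigenes held 45.2% of the summed FPKM, against 4.93% to 21.0% in the 44 other libraries. Its relative depth, read from the smallest FPKM values, was 1.42 times the middle of the set, and the range over all libraries was 0.790 to 1.42. No read counts per unigene were at hand, so the depth behind a single value is known only in this relative way. The paper lists clean reads per library, and by these FH replicate 1 was not the deepest. Several summaries of FH and counts it enters, but not all, are therefore also given without FH replicate 1.

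The members were of moderate abundance. Their mean ranged from 50.1 to 1836 FPKM with a median of 78.7 FPKM, and 69 members were at 100 FPKM or more. The 617 other unigenes that met the level and zero criteria had a median of 94.7 FPKM and reached 17306 FPKM. Divided by mean level into 4 bins of 204 or 205 unigenes, the 817 held 61, 59, 56 and 24 members from the lowest to the highest bin. The top bin, from 179 FPKM upwards, thus held the fewest members. The SD of a member on the log2 scale was 0.324 to 0.723 with a median of 0.544, against 0.724 to 5.38 with a median of 1.21 in the 617 others. Even so, the highest library of a member was 2.81 to 14.9 times its lowest (median 5.93), and this ratio had a median of 56.2 in the others.

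**Figure D1:**
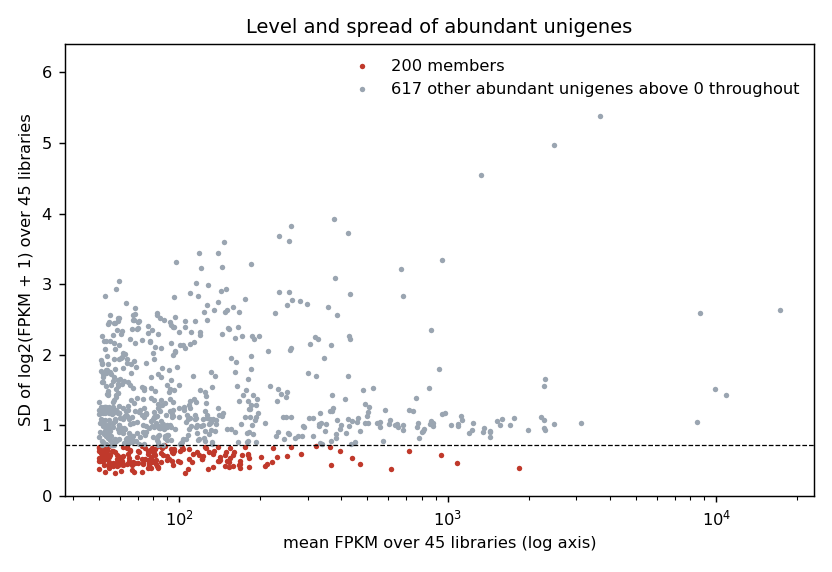
Mean FPKM over 45 libraries (horizontal, log axis) against the SD of log2(FPKM + 1) over the same libraries (vertical) for 817 abundant unigenes above 0 throughout, 1 point per unigene, with the 200 members in red and the 617 others in grey. The dashed line is the largest SD of a member, 0.723, and the red points thin out towards high levels.

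The limit of the rule fell in a dense region. The last member inside, Unigene35968_All, had an SD of 0.7231 and the first unigene outside, Unigene25175_All, of 0.7236. CL14748.Contig2_All, at rank 199, had an SD of 0.714. The limit therefore divides unigenes of nearly the same spread.

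The member with the smallest SD was Unigene58433_All (SD 0.324). Its values were 119, 49.0 and 120 FPKM in the 3 FG libraries, 83.5, 96.1 and 159 FPKM in the FP libraries, and 54.7, 128 and 176 FPKM in the FH libraries. In the groups of 6 fish its lowest, median and highest values were 85.2, 97.1 and 105 FPKM in MG, 75.4, 86.3 and 121 FPKM in UG, and 88.5, 105 and 127 FPKM in MP. They were 92.2, 99.5 and 102 FPKM in UP, 109, 119 and 138 FPKM in MH, and 93.3, 103 and 129 FPKM in UH. Its highest value and its 2 lowest values were in females, and every group overlapped with the female groups of the same tissue. The next members were CL16034.Contig1_All (SD 0.325, 30.2 to 119 FPKM) and CL22502.Contig6_All (SD 0.337, 46.7 to 132 FPKM). Both had their lowest value in a female library, FH replicate 1 for CL16034.Contig1_All and FG replicate 2 for CL22502.Contig6_All.

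The most abundant member was Unigene8130_All, with a mean of 1836 FPKM over the 45 libraries. It had 2332, 1828 and 3201 FPKM in FG, 3187, 1748 and 2298 FPKM in FP, and 1190, 1826 and 2465 FPKM in FH. The group means of males were 1703 ± 394 FPKM in MG, 1778 ± 307 FPKM in MP and 2183 ± 272 FPKM in MH, and those of stage I fish 1598 ± 495 FPKM in UG, 1305 ± 258 FPKM in UP and 1859 ± 351 FPKM in UH (SD, n = 6 each). The lowest of its 9 group means was that of UP, whose libraries ran from 990.2 to 1599 FPKM, and the highest that of FG, so its group means lay within a factor of 2 of each other.

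**Figure D2:**
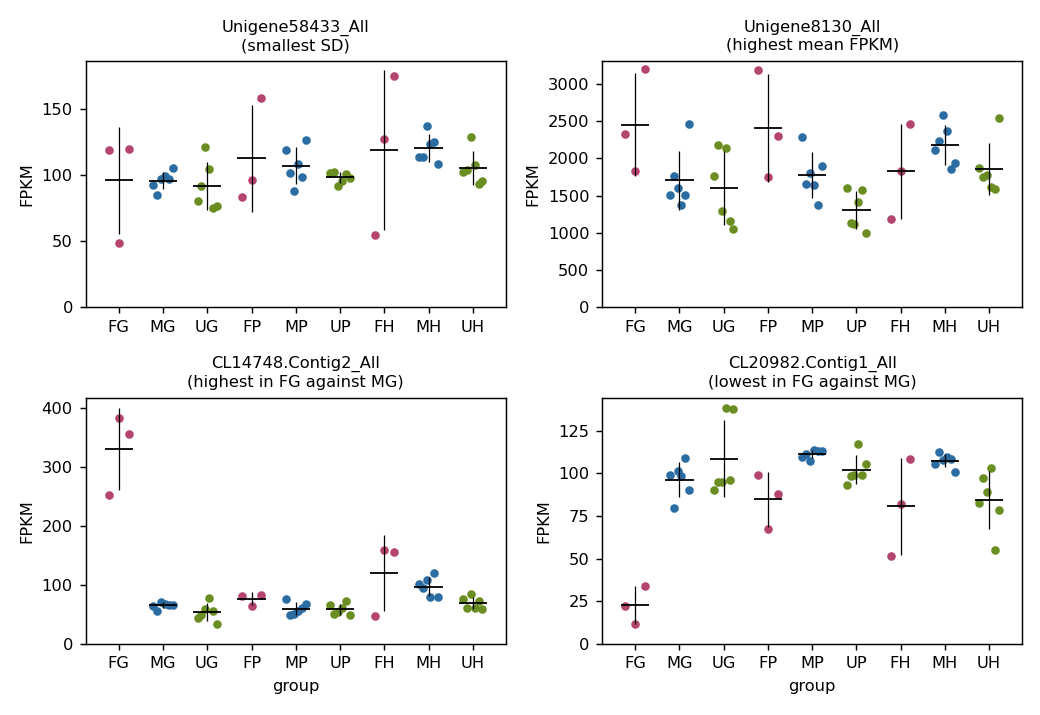
FPKM by library (vertical, linear axis from 0) in the 9 groups (horizontal) for 4 members, 1 point per library, with the group mean as a horizontal bar and 1 SD as a vertical bar; females are pink, males blue and stage I fish green. Unigene58433_All stays between 49.0 and 176 FPKM and Unigene8130_All between 990.2 and 3201 FPKM, whereas CL14748.Contig2_All stands high and CL20982.Contig1_All low in FG.

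Most of the variation left in the members lay between groups. A median of 61.1% of a member's variance was between the 9 groups, 19.1% between the 3 tissues and 16.4% between the 3 classes of sex and stage. In the 617 others the median between groups was 86.2%. The SD within groups had a median of 0.357 in the members and 0.527 in the others, and the SD between group means 0.464 and 1.23. The 2 sets thus differed more between groups than within them. The highest and lowest group mean of a member were apart by 0.43 to 2.63 on the log2 scale (median 1.46). This gap was under 1 in 28 members and over 2 in 25, and over 2 in 598 of the 617 others.

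The spread within groups was uneven across the groups. The median SD of a member over the libraries of a group was 0.449 in FG, 0.347 in FP and 0.831 in FH, each of 3 fish. It was 0.194 in MG, 0.194 in MP and 0.188 in MH, and 0.390 in UG, 0.228 in UP and 0.231 in UH, each of 6 fish. Without FH replicate 1 it was 0.402 over the 2 other FH libraries. The 3 male groups were the most even, and UG was the least even group of 6. The same order of females over males was seen in the 617 others, with 0.931 in FH (0.494 without FH replicate 1) against 0.273 in MH.

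The extremes of the members also gathered in the female libraries. The lowest value of 133 members and the highest value of 120 members fell in 1 of the 9 female libraries, which are 20% of all libraries. Such counts by library were not taken over the 617 others, so no trait of the members is read from them. FH replicate 1 held the lowest value of 83 members and FG replicate 2 that of 34. FH replicate 3 and FG replicate 3 each held the highest value of 33 members, and FP replicate 3 that of 24. All came from female fish 3, sequenced on HiSeq 4000. Female fish 2, also on HiSeq 4000, held 6 in FH, 4 in FP and 2 in FG. On HiSeq 2000, FG replicate 1 held 14 and FP replicate 1 held 4. FH replicate 1 was on HiSeq 2000 as well. The paper proposes different families as a possible reason for differences among female replicates. The parts of sex, sequencer and family in these counts were not tested. The groups with the highest mean were FG for 50 members, FP for 45 and UG for 28. Those with the lowest mean were FH for 43 members, FG for 42, MG for 39 and UH for 30, while FP was lowest for 2. FG was therefore the highest or the lowest group for 92 members (46%). Among the 617 others it was highest for 91 (14.7%) and lowest for 265 (42.9%), against 25% and 21% of the members. Without FH replicate 1, the lowest value of 79 members and the highest of 120 fell in 1 of the 8 female libraries left. FH was then the highest group for 55 members and the lowest for 17, FG for 41 and 44, and FP the highest for 24, so the place of FH turned with that library.

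The median of the 200 members in a library, taken as the deviation of each member from its own mean over the 45 libraries, shows how far they moved together. It was 0.01, -0.29 and 0.40 on the log2 scale in FG, 0.24, 0.00 and 0.50 in FP, and -0.98, 0.06 and 0.62 in FH. In the 36 libraries of males and stage I fish it ran from -0.27 to 0.27. FH replicate 1 stood lowest and FH replicate 3 highest, so the 3 fish of 1 group spanned the whole range of 1.60. Without FH replicate 1 the range was 0.910. In FH replicate 1, 189 of the 200 members were below their own mean and 97 were more than 1 from it on the log2 scale, while 168 were above it in FH replicate 3. The members held 2.53% of the summed FPKM in FH replicate 1 and 5.60% in FH replicate 3, and 3.68% ± 0.524 over all libraries (SD, n = 45).

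**Figure D3:**
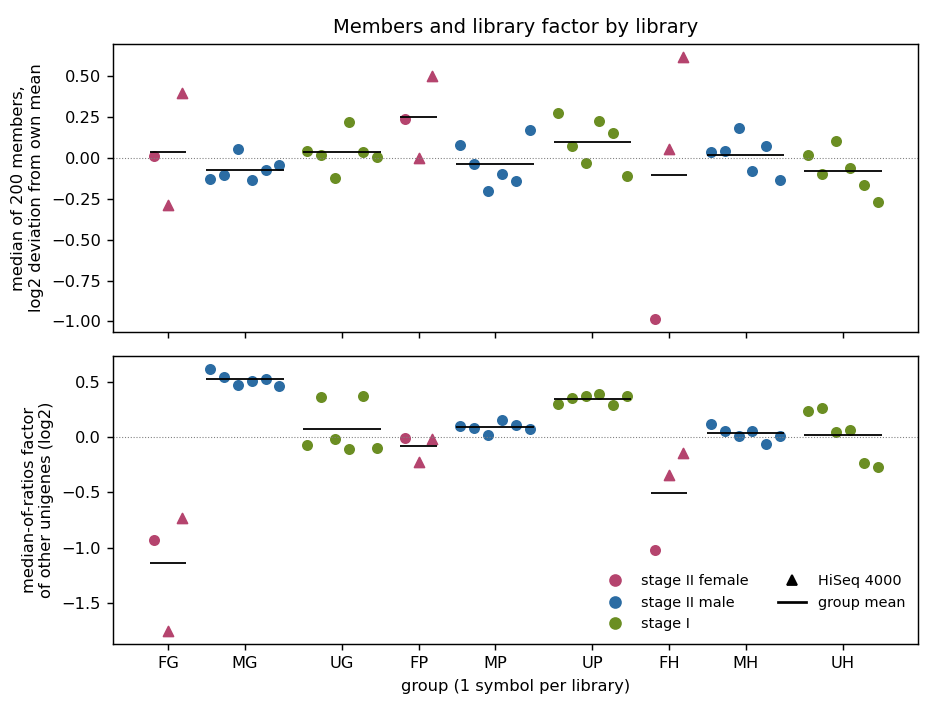
Upper panel: median over the 200 members of the log2 deviation from each member's own mean, 1 symbol per library, by group. Lower panel: median-of-ratios factor (log2) of 52948 other unigenes in the same libraries. Triangles are HiSeq 4000 libraries and bars are group means; in FG the factor lies between -1.75 and -0.73 while the member median lies between -0.29 and 0.40, and FH replicate 1 is low in both panels.

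Whether these shifts follow the scaling of the libraries was examined with a median-of-ratios factor, the median over 52948 unigenes above 0 in every library, members left out, of the log2 deviation from the unigene's own mean. A negative factor means that most unigenes were low in that library. The factor was -0.93, -1.75 and -0.73 in FG, -0.01, -0.22 and -0.02 in FP, and -1.03, -0.34 and -0.14 in FH. It was 0.46 to 0.61 in MG and 0.28 to 0.39 in UP. The members did not carry these group shifts, which the rule itself favours. Their median averaged 0.04 ± 0.34 in FG where the factor averaged -1.14 ± 0.54 (SD, n = 3), -0.07 ± 0.07 in MG where it averaged 0.52 ± 0.06, and 0.10 ± 0.15 in UP where it averaged 0.34 ± 0.04 (SD, n = 6 each).

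Between the 3 female hypothalami the members and the factor had the same order. A factor from the 617 other abundant unigenes alone was closer to the members in FH replicates 2 and 3. In FH replicate 1 it was further from them than the median-of-ratios factor of -1.03. It was -0.70, 0.01 and 0.56 in FH replicates 1 to 3, where the members had -0.98, 0.06 and 0.62. In FP it was 0.52, 0.25 and 0.49 beside member medians of 0.24, 0.00 and 0.50. In FG it was -1.09, -1.70 and -0.53, below the members in each of the 3 libraries. Within FG both measures kept 1 order, with FG replicate 2 lowest and FG replicate 3 highest. The share of the 10 most abundant unigenes moved with the low values of FH replicate 1 (45.2%), and its part in them was not tested. In bulk tissue, fewer cells of a type and less RNA per cell cannot be told apart.

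Dividing each library by its factor therefore made the members less even, not more. The median SD of a member was 0.663 after median-of-ratios scaling, against 0.544 as deposited, and the SD was larger in 164 members and smaller in 36. The increase lay between groups, where the median SD was 0.667 after scaling, against 0.464 as deposited, and it was larger in 166 members. Within groups the SD was 0.334 after scaling, against 0.357 as deposited, and it was smaller in 140 members. That decrease rested on FH replicate 1: without it the SD within groups was 0.322 after scaling, against 0.305 as deposited, and it was smaller in 74 members and larger in 126. The median share of variance between groups was 77.2% after scaling, against 61.1% as deposited.

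Scaling on the 617 abundant unigenes gave a median SD of 0.620, larger in 139 members and smaller in 61. Within groups the SD was then 0.306, smaller in 175 members and larger in 25, and between groups it was 0.618. The decrease within groups rested on the females: in the 36 libraries without them it was 0.273 after this scaling, against 0.270 as deposited, smaller in 92 members and larger in 108. In the 36 libraries without females the median SD of the members was 0.467 after median-of-ratios scaling, against 0.425 as deposited, so scaling raised the spread there as well, in 146 members. The direction of the rule has to be kept in mind here: the members were chosen for their evenness on the deposited scale, and a set chosen on the scaled values shared 155 of the 200.

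**Figure D4:**
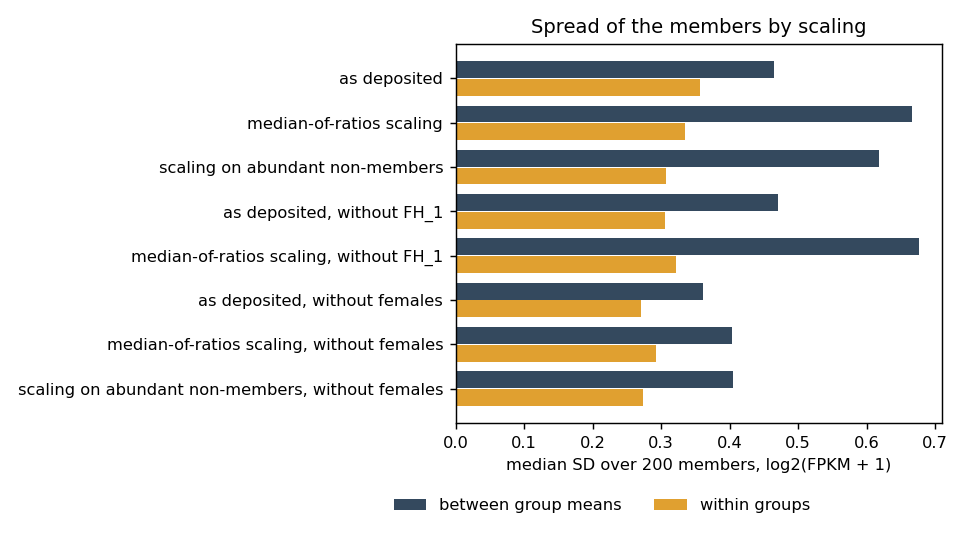
Median SD over the 200 members on the log2 scale (horizontal, from 0), between group means (dark bars) and within groups (yellow bars), for the deposited and the scaled values, with and without FH replicate 1 and the females. The dark bars lengthen under both scalings, to 0.667 and 0.618 against 0.464 as deposited, while the yellow bars change little.

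The groups were then compared with limma on log2(FPKM + 1) over all unigenes at 1 FPKM or more in enough libraries, and all 200 members passed that filter in each of the 9 comparisons. A unigene was called at an adjusted p under 0.05. The comparisons use the libraries that chose the members, so the member counts stand beside the percentages over all tested unigenes without being read against them. Comparisons that name the same group share its libraries. By this test 4 members were called in 0 of the 9 comparisons, the median was 4 comparisons, the most was 7, and 57 members were called in 5 or more. Such counts over several comparisons were not taken over all tested unigenes, so nothing about the members is read from them.

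Among the tissues of stage II males, 43 members (21.5%) were called higher in MP than in MH and 47 (23.5%) lower, beside 21.7% and 27.5% of 80450 unigenes. After median-of-ratios scaling the counts were 37 and 59, beside 20.1% and 29.7%. After scaling on the 617 abundant unigenes they were 20 and 109, beside 12.8% and 38.8%. Lower calls thus outnumbered higher ones by more under that scaling, among the members and over all tested unigenes. With the tissues of male fish 4 exchanged, limma called 0 members in this comparison, beside 0% of all tested unigenes in each direction. At an unadjusted p under 0.05 limma then held 54 members and 26308 of 80450 unigenes. With male fish 4 left out, 36 members were called higher and 43 lower, beside 15622 and 21724 of 80387. In MG against MP, 50 members were called higher and 65 lower, beside 41.3% and 20.2% of all tested unigenes, and after median-of-ratios scaling 13 and 123, beside 27.6% and 31.6%, and after the abundant scaling 38 and 87, beside 35.3% and 22.9%. In MG against MH, 58 were called higher and 74 lower, beside 43% and 27.1%, and after median-of-ratios scaling 22 and 126, beside 28.7% and 38.6%, and after the abundant scaling 23 and 125, beside 28% and 36.7%. The median log2 difference of the members was -0.04 in MP against MH, -0.06 in MG against MP and -0.11 in MG against MH, while over all tested unigenes it was -0.01, 0.27 and 0.26. Median-of-ratios scaling put the member medians at -0.09, -0.49 and -0.59, and the abundant scaling at -0.36, -0.20 and -0.58. In MG against either other tissue, called members were more often lower than higher under both scalings. Both scalings divide MG by a larger mean factor than MP and MH, and the members were chosen as even on the deposited scale. The rule favours such a shift, so nothing about the members is read from it.

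Some members differed by tissue with no overlap between males. Unigene35968_All had 113, 129 and 155 FPKM in MP (lowest, median and highest of 6), against 39.0, 42.8 and 55.0 FPKM in MH, a log2 difference of 1.53 ± 0.11 (SE). CL20229.Contig2_All was the lowest called member without overlap in MP against MH and in MG against MH. It had 33.8, 35.6 and 45.9 FPKM in MG and 44.9, 58.8 and 98.6 FPKM in MP, against 119, 134 and 157 FPKM in MH. Its log2 difference was -1.82 ± 0.11 in MG against MH and -1.15 ± 0.15 in MP against MH (SE). It was also high in UH, at 95.8 to 156 FPKM, but not in FH, where the 3 libraries had 62.1, 77.6 and 74.6 FPKM.

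The gonad gave the remaining tissue extremes. Unigene64045_All had 254, 307 and 316 FPKM in MG, against 87.6, 110 and 119 FPKM in MH, a log2 difference of 1.47 ± 0.11 that was 0.98 after median-of-ratios scaling. CL3877.Contig1_All had 72.6, 89.5 and 95.2 FPKM in MG, against 27.6, 31.0 and 36.5 FPKM in MP, a log2 difference of 1.44 ± 0.10. Unigene25584_All had 29.9, 35.5 and 50.6 FPKM in MG, against 97.9, 107 and 111 FPKM in MP, a log2 difference of -1.51 ± 0.13 (SE). In male fish 4, grouped by its codes, Unigene35968_All had 118 FPKM in MP and 39.8 FPKM in MH, each within the range of the 5 other fish of that group. This member was named for groups without overlap, with fish 4 grouped in this way, so its values are no check of the labels.

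Between stage II males and stage I fish, fewer members were called than between the tissues of males, and the same held over all tested unigenes. In MH against UH, 28 members were called higher and 16 lower, beside 7.21% and 10.1% of all tested unigenes, after median-of-ratios scaling 28 and 12, beside 7.84% and 10.6%, and after the abundant scaling 19 and 19, beside 5.59% and 11.3%. In MP against UP, 18 were called higher and 47 lower, beside 7.26% and 29.6%, after median-of-ratios scaling 59 and 16, beside 12.7% and 16.4%, and after the abundant scaling 27 and 45, beside 7.35% and 26.3%. In MG against UG, 13 were called higher and 39 lower, beside 31.1% and 6.19%, after median-of-ratios scaling 1 and 88, beside 14.6% and 12.3%, and after the abundant scaling 21 and 29, beside 36.3% and 5.29%. In the pituitary the majority turned round under median-of-ratios scaling and did not under the abundant scaling, and in the gonad lower members outnumbered higher ones on each scale, least so under the abundant scaling. In the hypothalamus the surplus of higher members was gone under the abundant scaling. The members' median log2 difference was 0.10 in MH against UH, -0.11 in MP against UP and -0.15 in MG against UG. No absolute log2 difference of a member exceeded 1 in MH against UH, where 0.95 was the highest. In the 3 stage comparisons 91 members were called in 0, a count not taken over all unigenes.

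The members with the most extreme called differences between stages were each separate in every library of the groups compared. In the hypothalamus, CL11837.Contig2_All had 91.1, 113 and 128 FPKM in MH, against 51.9, 57.7 and 63.5 FPKM in UH (log2 difference 0.95 ± 0.11, SE). CL23378.Contig15_All had 16.2, 27.6 and 38.4 FPKM in MH, against 42.2, 52.1 and 57.4 FPKM in UH (-0.94 ± 0.20). In the pituitary it had 20.6, 35.8 and 45.6 FPKM in MP, against 54.3, 63.2 and 67.8 FPKM in UP.

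In the pituitary, Unigene42030_All had 471, 599 and 736 FPKM in MP, against 240, 300.2 and 451 FPKM in UP (0.95 ± 0.17, SE). CL16870.Contig1_All had 40.4, 52.8 and 75.6 FPKM in MP, against 94.9, 117 and 130 FPKM in UP (-1.09 ± 0.15). In the gonad, CL11363.Contig1_All had 131, 150 and 178 FPKM in MG, against 40.0, 79.2 and 97.4 FPKM in UG (1.05 ± 0.21). Unigene64063_All had 94.1, 101 and 121 FPKM in MG, against 176, 325 and 443 FPKM in UG (-1.55 ± 0.21). For Unigene64063_All the UG libraries were the more scattered, with an SD of 89.2 FPKM in UG beside 10.1 FPKM in MG.

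Between the sexes in stage II the counts depended on the scale. In FG against MG, 61 members were called higher and 45 lower, beside 8.62% and 73.2% of all tested unigenes, after median-of-ratios scaling 183 and 1, beside 25.9% and 48.6%, and after the abundant scaling 162 and 5, beside 20.6% and 53.6%. The median log2 difference of the members was 0.16, while over all tested unigenes it was -1.24, and after median-of-ratios scaling these medians were 1.80 and -0.59. In FP against MP, 56 were called higher and 6 lower, beside 9.32% and 29.7%, and after scaling 80 and 3, beside 12.2% and 25.4%. Scaling on the 617 abundant unigenes gave 11 higher and 32 lower there, beside 5.17% and 43.7%, so the direction in the pituitary turned with the set of unigenes that defined the scale. Without FP replicate 3, 22 members were called on the deposited scale in place of 62, 18 higher and 4 lower, beside 5.86% and 17.7%.

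In FH against MH, 11 members were called higher and 27 lower, beside 7.9% and 49.8% of all tested unigenes, and after median-of-ratios scaling 69 and 8, beside 16.7% and 34.5%. Scaling on the 617 abundant unigenes gave 10 higher and 69 lower, beside 6.79% and 53.2%. The counts turned with a single library: without FH replicate 1, 80 members were called higher and 24 lower, beside 15.7% and 48.6%, and without FH replicate 3, 4 higher and 58 lower, beside 6.16% and 45.9%. No direction for the members as a set can be read in this tissue. By the deposited scale 6 members were called in all 3 sex comparisons, 3 of them higher in females in each and 1 lower in each, and 54 members were called in 0 of the 3. These counts, too, were not taken over all unigenes.

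**Figure D5:**
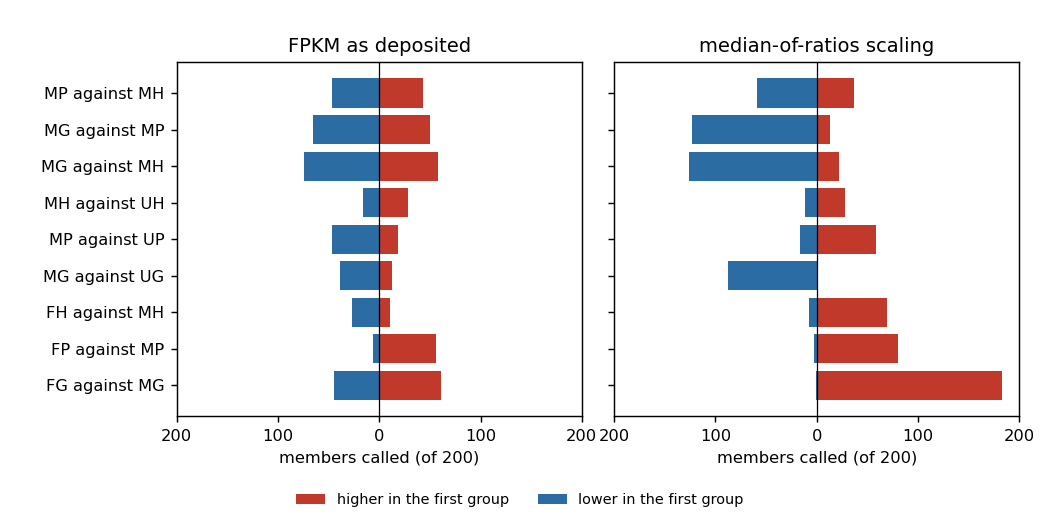
Number of the 200 members called higher (red, to the right) or lower (blue, to the left) in the first named group of each of 9 comparisons by limma at an adjusted p under 0.05, on the FPKM as deposited (left panel) and after median-of-ratios scaling (right panel). FG against MG holds 61 higher and 45 lower members on the left and 183 and 1 on the right, and MP against UP holds 18 and 47 on the left and 59 and 16 on the right.

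FG against MG held the largest log2 differences among the named members. CL14748.Contig2_All had 252, 382 and 356 FPKM in FG, against 55.9, 66.0 and 70.7 FPKM in MG (lowest, median and highest of 6), a log2 difference of 2.31 ± 0.21 (SE). In the other groups its means were 53.3 ± 15.1 FPKM in UG, 76.2 ± 10.9 FPKM in FP, 59.6 ± 10.6 FPKM in MP and 58.5 ± 9.2 FPKM in UP. They were 120 ± 63.9 FPKM in FH, 96.7 ± 16.2 FPKM in MH and 68.6 ± 10.4 FPKM in UH (SD, n = 3 in FP and FH, n = 6 in the others). The FG libraries were thus above all others, the highest of which was 159 FPKM in FH replicate 2. CL20982.Contig1_All was its opposite, with 22.3, 11.8 and 34.1 FPKM in FG, against 79.5, 98.8 and 109 FPKM in MG, a log2 difference of -2.15 ± 0.29. In MP it was even, at 107 to 114 FPKM over 6 fish. After median-of-ratios scaling the log2 differences in FG against MG were 3.95 for CL14748.Contig2_All and -0.54 for CL20982.Contig1_All, so both kept their direction.

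In the female pituitary, CL16870.Contig1_All had 97.1, 147 and 181 FPKM in FP, against 40.4, 52.8 and 75.6 FPKM in MP, a log2 difference of 1.33 ± 0.25 (SE). The MP libraries of this member were thus below FP and below UP alike. CL6499.Contig3_All had 22.9, 15.8 and 24.3 FPKM in FP, against 47.6, 63.9 and 81.9 FPKM in MP, a log2 difference of -1.58 ± 0.22. In the female hypothalamus, Unigene15897_All had 54.8, 78.4 and 181 FPKM in FH, against 21.2, 28.4 and 35.6 FPKM in MH, a log2 difference of 1.66 ± 0.36. Unigene47219_All had 16.9, 29.0 and 43.4 FPKM in FH, against 86.2, 92.5 and 104 FPKM in MH, a log2 difference of -1.71 ± 0.29. The FH replicates of both members followed the order of the member median in these libraries, lowest in FH replicate 1 and highest in FH replicate 3, and both members stayed apart from MH in each of the 3.

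The rule was reapplied without the 9 female libraries, which leaves the female values independent of the choice. Of the 200 unigenes chosen from the 36 libraries of stage I fish and males, 135 were also members. Their distance in females from their own mean in the 36 libraries was taken from the group mean. In FG, 101 of them (50.5%) were within 1 on the log2 scale, against 35.7% of the 591 other unigenes that met the level and zero criteria. In FP these shares were 85.5% (171) and 56.7%, and in FH 76.5% (153) and 60.2%. The FH mean averages opposite shifts: its single libraries had 51.5%, 72.5% and 69% within 1, and without FH replicate 1 the shares of the group mean were 73.5% and 57.4%. Among the unigenes chosen without females, the share near the earlier level was thus lowest in FG. The level and zero criteria were applied here to the 36 libraries only. Unigenes high only in these can therefore be among the 591 others. This can lower the shares of the others, so the larger shares of the chosen unigenes are not read against them. The shares are over unigenes, which are not replicates, and were not tested. Their median deviation in FG was -0.39, against -1.35 in the others, and the 3 libraries had -0.36, -0.87 and -0.08. In FP it was 0.02, against 0.21 in the others. In FH it was -0.33, against -0.26 in the others, so there the chosen unigenes were not the nearer by this measure. Without FH replicate 1 the FH values were -0.0003 and 0.10, and the chosen unigenes were then the nearer. In FG against MG limma called 49 of them higher and 87 lower, in FP against MP 37 higher and 24 lower, and in FH against MH 6 higher and 63 lower, on the deposited scale. Without FH replicate 1 the FH counts were 54 and 58, so the surplus of lower calls rested on that library. Median-of-ratios scaling gave 134 higher and 41 lower in FG against MG, 55 and 14 in FP against MP, and 44 and 20 in FH against MH. The abundant scaling gave 118 and 50, 11 and 69, and 4 and 104 in the same order. The majority of these calls therefore changed direction with the scale in each tissue. The percentages over all tested unigenes are those given above for these comparisons.

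The same was done without the gonad libraries. Of the 200 unigenes chosen from pituitary and hypothalamus alone, 130 were also members. In the gonads, 120 of them (60%) stayed within 1 of their earlier mean in FG, 158 (79%) in MG and 170 (85%) in UG, against 32.4%, 37.4% and 31.3% of the 689 other unigenes. The median deviation of the chosen unigenes was -0.44 in FG, -0.17 in MG and -0.13 in UG, and that of the others -1.97, -0.89 and -0.71. The chosen unigenes were thus mostly within 1 of their earlier mean in MG and UG, and less often in FG. The level and zero criteria were applied here without the gonads. Unigenes high only in pituitary and hypothalamus can therefore be among the 689. This can lower the shares and medians of the others, so the chosen unigenes are not read against them. In FG the single libraries had 59.5%, 48% and 61% within 1, so FG replicate 2 was the lowest of them.

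The members can also be described by a feature of the assembly that the rule did not use. Single unigenes, which the assembly placed in no cluster of similar contigs, made up 132 of the 200 members (66%), 303 of the 617 other abundant unigenes (49.1%) and 47.0% of the whole table, a difference that was not tested. The 68 contigs came from 58 clusters, 10 of which held 2 members. Sturgeons are polyploid, and contigs of 1 cluster can be near-identical copies or isoforms whose reads cannot be told apart with certainty, so single contigs are uncertain as measures of a gene. In the 46 clusters with other contigs, the members held a median of 85.8% of the cluster's FPKM (7.21% to 99.9%). The most abundant other contig had a median SD of 0.731, over the members' limit in 23 of the 46 clusters. Of these contigs 5 had a mean of 50 FPKM or more and 39 of 1 FPKM or more. The log2(FPKM + 1) scale understates the spread at low levels, so these SDs are not compared with those of the members. Summing each of the 51 clusters of several contigs gave a smaller SD than the member's in 30 and a larger one in 21, with medians of 0.587 and 0.588. CL195.Contig2_All, with 37.8% of its cluster, had an SD of 0.699, and its cluster's sum one of 0.439. CL2037.Contig3_All, with 7.21% of its cluster, had an SD of 0.712, and its cluster's sum one of 0.843. Of the contigs named for group differences, CL23378.Contig15_All came from a cluster of 24 contigs, where 2 members held 25.8% of the FPKM. CL20229.Contig2_All held 48.8% of its cluster and CL6499.Contig3_All 47.9%. For the other contigs so named, members held 76.0% to 100%. These differences are those of contigs and were not taken over cluster sums.

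Over all members, the first principal component of the log2 values held 22.9% of the variance and the second 16.4%. On the first, FH replicates alone spanned -10.8 to 9.33, so this axis was as wide within 1 group as over the whole set. Without FH replicate 1 the first component held 22.1%, and the FH libraries lay at 3.16 to 8.06 on it, near FG (3.79 to 7.89) and FP (2.87 to 6.89), against -5.85 to -2.42 in MH. On the second component they then lay at -6.13 to -3.92. On the second component of all 45 libraries, MG lay at 4.31 to 5.44 and UG at 1.92 to 4.43, against -5.09 to -2.57 in MH and -4.12 to -2.04 in UH, with MP between -1.27 and 0.37. The second axis thus ordered the male and stage I libraries by tissue, with gonad and hypothalamus apart and pituitary between. The female groups crossed these ranges: FG lay at -0.90 to 2.51, FP at -3.87 to -1.02 and FH at -4.42 to 3.42. For male fish 4, the library coded MP lay at 0.03, within the other MP libraries. The library coded MH lay at -2.57, and the other MH libraries at -5.09 to -3.04. On this axis each thus lay nearer to the libraries of its own code.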

How the data were processed

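RNA from the gonad, pituitary and hypothalamus of 15 fish was sequenced by the authors in 45 libraries. Reads were cleaned by the authors with SOAPnuke, assembled into unigenes with Trinity and TGICL, mapped with SOAP2 and turned into the deposited FPKM values with RSEM. Every sample column was used. The members and lists were chosen with earlier results of these data known. Tests used limma 3.58.1 (lmFit, eBayes with a trend) in R 4.3.3 on log2(FPKM + 1), a scale that understates changes of low unigenes, over the libraries of each compared pair, with a filter of 1 FPKM that the number of libraries in the smaller group had to reach, and Benjamini-Hochberg adjustment with a threshold of 0.05. The study used NOISeq, which was not used here. Simulated data with known changes were used to test the fit. Relative depth was read from values under 0.15 FPKM. Other steps used Python 3.11.15 with NumPy 2.4.6, pandas 2.3.3 and Matplotlib 3.10.9.

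Unigenes named were the 3 with the smallest SD, the most abundant member, the last inside and first outside the limit, and in each comparison the called member with the highest and the one with the lowest log2 difference whose groups did not overlap. CL195.Contig2_All and CL2037.Contig3_All were added after their values were seen. Libraries of the same male fish deviated together: in 18 of 18 checks the own fish correlated best (r 0.222 to 0.357, over unigenes), so the male tissues are paired by fish. The main tests and their SEs did not use this pairing, and the replicate block was run as an alternative. Labels do not say that numbers shared between groups of different fish mark anything. P-values measure the spread between fish. Alternatives were a pseudocount of 0.1, minimum means of 20 and 100 FPKM, both scalings, the coefficient of variation, a replicate block, HiSeq 2000 libraries only, leaving out libraries, and male fish 4 exchanged or left out.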

Additional observations from a re-analysis of the deposited data

Results flagged for a closer look

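The named unigenes and the member median were tested for a library far from the others in each group of 6. Of 132 such tests 4 found one. Chance alone flags about 1 in 20, so the 4 are no more than chance gives. Unigene64045_All had 254.1 FPKM in MG replicate 6, below the 294.1 to 316.1 FPKM of the 5 other MG libraries. In MH replicate 6, from the same fish, it had 87.55 FPKM, below the 106.6 to 118.6 FPKM of the other MH libraries. Unigene8130_All, the most abundant member, had 2541 FPKM in UH replicate 6, above the 1588 to 1873 FPKM of the other UH libraries. CL23378.Contig15_All had 42.23 FPKM in UH replicate 1, below the 51.71 to 57.45 FPKM of the other UH libraries.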

How the results depend on the processing

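Of 158 alternatives to the counts and summary values, 129 stayed near the main value and 29 moved further. A count was near within 1.5 times, whichever way its members were called. The range of the member median was near within the replicate spread, and the other summary values within a fixed fraction. Counts that turned round can thus be among the 129. MP against UP, for example, had 18 higher and 47 lower members as deposited and 59 and 16 after median-of-ratios scaling. The named members' differences kept their sign in all 266 alternatives, and 24 of these moved by more than the spread within groups. Those members were named for groups without overlap. Leaving out 1 library or changing the pseudocount therefore could not turn a sign. Exchanging the tissues of male fish 4 left 0 members called by limma in MP against MH (54 at an unadjusted p under 0.05), 14 in MH against UH and 29 in FP against MP. Over all tested unigenes the exchange called 0 of 80450 in MP against MH, with 26308 at an unadjusted p under 0.05. The exchange called 2495 higher and 3965 lower of 77892 in MH against UH, and 6274 and 18868 of 82625 in FP against MP. Leaving male fish 4 out called 79 members in MP against MH, beside 15622 higher and 21724 lower of 80387. Median-of-ratios scaling gave 89 in MG against UG, 77 in FH against MH and 184 in FG against MG, and scaling on the 617 abundant unigenes 79 in FH against MH and 167 in FG against MG. With the replicate block, 7 members were called in FH against MH, beside 3554 higher and 31862 lower of 83014 tested unigenes. In FG against MG the block called 61 members, beside 5804 and 59753 of 85760. In FP against MP it called 0, beside 207 and 153 of 82246. At an unadjusted p under 0.05, limma with the block held 22 members there, beside 25423 of the 82246. Groups of different fish share a number only. Over the stage and sex comparisons together, the own number was the best match in 5 of 27 checks, most of them in MH against UH. Among the female libraries only FG replicate 3 matched its own number best. In the female comparisons, males numbered above 3 add nothing to the contrast of the block. In the paired male tissues the block gave 90, 118 and 141 members for MP against MH, MG against MP and MG against MH, against 90, 115 and 132 without it, and changed no other count by over 1.5 times. Over all tested unigenes it called 19382 higher and 23715 lower of 80450 in MP against MH. In MG against MP it called 37308 and 18512 of 83921, and in MG against MH 39910 and 25031 of 86806. With HiSeq 2000 libraries only, which leaves 1 female, 142 members were called in FH against MH and 33 in FP against MP, the lone library being assumed to vary like the males. The FH library left was FH replicate 1, where the 10 most abundant unigenes held 45.2% of the summed FPKM. The members' median log2 difference was then -0.97 in FH against MH, beside -0.67 over all tested unigenes. In FP against MP it was 0.28, beside -0.16. The parts of the sequencer and of this single fish were not tested, so nothing is read from the 142 and the 33. Leaving out 1 library at a time gave 29 to 104 members in FH against MH and 22 to 85 in FP against MP. The 29 came without MH replicate 2, beside 5744 higher and 38366 lower of 81147 tested unigenes. The 85 came without FP replicate 1, beside 12544 and 34286 of 86072. For the 104 and the 22 the percentages are given above. The cause of these changes was not tested. Of the 200 members, 74 remained with a minimum mean of 20 FPKM, 69 with 100 FPKM and 130 without gonads, and 184 to 200 when 1 library was left out. The median SD was 0.6625 and 0.6205 under the 2 scalings and 0.4246 without females. The share of variance between groups was 77.19% and 78.66% under the 2 scalings and 69.8% without FH replicate 1. The range of the member median was 2.181 and 1.937 under the scalings, 0.5501 without females and 0.9101 without FH replicate 1, the last a choice made after seeing the data. No read counts per unigene were at hand, so depth limits cannot be given per value.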

Other observations

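Of the 962 unigenes with a mean of 50 FPKM or more, 145 were left out of the choice because they were listed at 0 in at least 1 library. They were listed at 0 in a median of 4 libraries, 62 of them in an FG library, and 64 in gonad libraries only. A value of 0 in an estimated table can be a failed estimate as well as absence. When the choice of members was repeated without FH replicate 1 and the 3 FG libraries, an alternative chosen after seeing the data, 147 of the 200 members were chosen again from 811 unigenes that met the criteria.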
